A study of Bos taurus with 12 samples.

Results

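The response to low oxygen in the absence of TGF-β3 was measured in mesenchymal stem cells from the bone marrow of juvenile cattle (under 6 months of age), multipotent stromal cells that can form cartilage, bone and fat. Its mean differences rest on 6 of the 12 arrays of the study. By their titles these are the 3 hypoxic and the 3 normoxic arrays without the growth factor, joined by the donor number in the title. Standard errors and p-values come from a model fitted to all 12 arrays. The study expanded cells from the femurs and tibiae of 3 donors in 4 conditions, at 21% or 2% oxygen and with TGF-β3 at 0 or 10 ng/mL, and hybridised total RNA to bovine whole-transcript Affymetrix arrays.

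Both groups described here were primary cultures of the same 3 animals in high-glucose medium with fetal bovine serum and antibiotics. Before the treatment all cells had been brought to confluence at atmospheric oxygen over a single passage. They were then passaged and kept for one week either at 21% oxygen, the normoxic controls, or at 2% oxygen in a workstation that kept the medium changes hypoxic. Strain and sex are not named in the labels used here, and each condition holds 1 culture of each animal. The same contrast in cells given TGF-β3 is reported beside the test of the difference between both responses. The arrays of those cells also enter the model's estimate of the spread.

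Cells sense oxygen through prolyl hydroxylases, which need it to mark the α subunits of hypoxia-inducible factors (HIF) for destruction by the VHL ubiquitin ligase. When oxygen is scarce the α subunits persist, pair with ARNT and switch on genes for glucose uptake, glycolysis, lactate export, pH control and blood vessel growth. They also switch on genes that reduce mitochondrial respiration. In bone marrow, where oxygen is lower than in air, stromal cells are commonly grown in hypoxia to mimic their niche, and low oxygen is known to favour a cartilage fate.

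The log2 signal of 26773 probe sets was available on every array, with array medians between 6.59 and 6.66. Differences are given as 2% minus 21% oxygen on the log2 scale, as the mean over 3 donors ± the standard error from limma, a moderated linear model. A probe set was called at a Benjamini-Hochberg adjusted p under 0.05 over all probe sets. Mesenchymal stromal markers such as THY1 and PDGFRB, 20 in all, had a mean log2 signal between 10.12 and 10.21 on the normoxic and between 10.13 and 10.23 on the hypoxic arrays. By contrast, 14 haematopoietic markers averaged 5.72 to 5.83 and 5.82 to 5.93, 11 endothelial markers 6.07 to 6.19 and 6.15 to 6.28, and 9 erythroid markers 5.50 to 5.56 and 5.31 to 5.53. PTPRC, the pan-leukocyte antigen CD45, lay between 4.06 and 4.48, under the first quartile of the array values (4.89 to 4.98). Of these, LAPTM5, a lysosomal protein of blood cells, had a signal above the array medians, with 8.19, 7.80 and 9.68 at 21% and 9.25, 8.68 and 10.10 at 2% oxygen in donors 1, 2 and 3. The endothelial transcription factor gene ERG was also above them, between 9.51 and 10.45. For 7 osteoclast markers the mean was 5.74 to 5.81 and 5.64 to 5.76, although CTSK, a collagen-degrading protease also made by fibroblasts, lay between 12.34 and 12.92.

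After a week at 2% oxygen LPL and CNTNAP4 rose and B4GALT6 fell, the 3 probe sets that passed the test (0.0112% of 26773). The 2 that rose were 0.00747% and the 1 that fell 0.00374% of all probe sets. Each of them moved more than 2-fold. An unadjusted p under 0.05 was reached by 2253 probe sets, 8.42% of all, 1276 of them higher (4.77%) and 977 lower (3.65%).

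LPL encodes lipoprotein lipase, the enzyme that frees fatty acids from circulating lipoproteins, and it is also an early marker of fat cell formation. Its log2 signal was 5.79, 5.83 and 6.51 at 21% and 7.41, 7.40 and 7.83 at 2% oxygen in donors 1, 2 and 3. Every hypoxic array lay above every normoxic one, and donor 3 was highest in both groups. LPL rose by 1.50 ± 0.13, or 2.84-fold (95% interval 1.21 to 1.80, limma adjusted p = 0.00741). In RNA from a whole culture, a change in the share of cells that express a gene and a change in the RNA per cell cannot be told apart. Among the other 20 adipogenic genes none was called, PPARG, the master regulator of fat cells, differed by 0.63 ± 0.20, and the median of the list was 0.08, or 0.02 without the hypoxic array of donor 3.

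CNTNAP4, a neurexin-like cell adhesion protein known from synapses, had a log2 signal of 5.62, 5.56 and 5.80 at 21% and 7.24, 6.98 and 7.03 at 2% oxygen. The groups did not overlap and were separated by more than the whole spread within either. It rose by 1.42 ± 0.12, or 2.69-fold (95% interval 1.15 to 1.70, limma adjusted p = 0.00741).

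B4GALT6, which makes lactosylceramide, a precursor of complex glycosphingolipids, had a log2 signal of 9.24, 9.06 and 8.23 at 21% and 8.12, 7.98 and 6.99 at 2% oxygen. Donor 3 was lowest in both groups, and no hypoxic array reached the lowest normoxic one. It fell by 1.15 ± 0.10, a 2.22-fold decrease (95% interval -1.37 to -0.93, limma adjusted p = 0.00741).

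Without the donor as a block only CNTNAP4 was called (limma adjusted p = 0.00345, against 0.29 for LPL and 0.835 for B4GALT6). No probe set was called when any 1 of the 3 normoxic arrays was left out. The count was 1, 8 and 2 without the hypoxic array of donor 1, 2 and 3, 0, 0 and 1 without the whole of donor 1, 2 and 3, and 5 without the normoxic TGF-β3 array of donor 1.

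**Figure D1:**
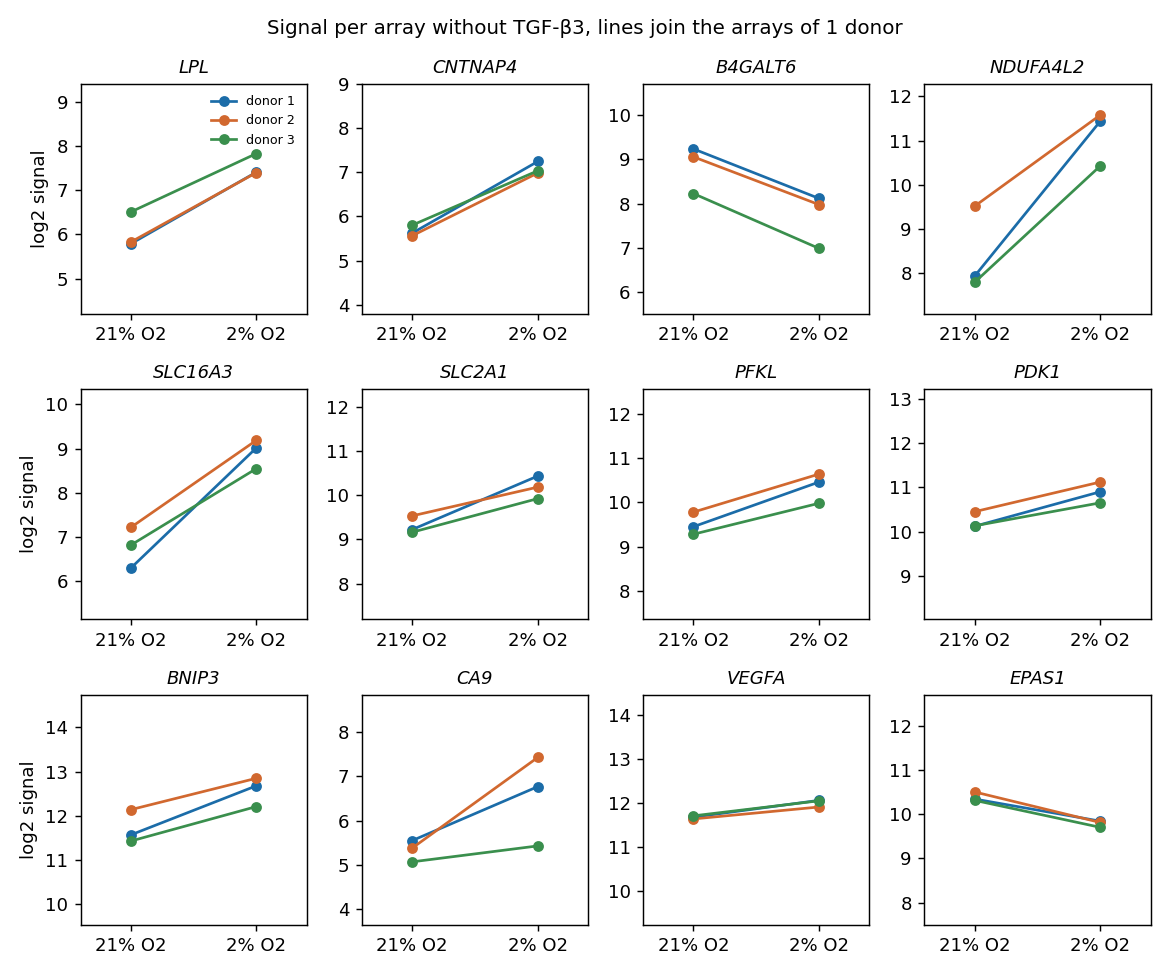
Log2 signal of 12 genes at 21% and 2% oxygen without TGF-β3, each point 1 array and each line 1 donor, with vertical axes of equal span within the panel's own range. LPL and CNTNAP4 go up and B4GALT6 down in all 3 donors. Their steps are less unequal between donors than that of CA9, which differs by 2.05 in donor 2 and 0.36 in donor 3. A small spread between donors also favours a call.

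A total of 31 probe sets had a mean difference of at least 2-fold with the same sign in 3 of 3 donors, 28 higher (0.105% of all) and 3 lower (0.0112%), and 28 of the 31 had a gene name. They are described here for their size and, apart from the called ones, did not pass the test. The largest belonged to NDUFA4L2, which encodes a mitochondrial protein that in human and mouse cells is a HIF target and lowers complex I activity. Its log2 signal was 7.94, 9.52 and 7.80 at 21% and 11.44, 11.58 and 10.43 at 2% oxygen. The lowest hypoxic array was above the highest normoxic one, with donor 2 already high in normoxia. The difference was 2.73 ± 0.52, or 6.62-fold (limma adjusted p = 0.217).

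SLC16A3, the lactate exporter MCT4, was next, with 6.30, 7.22 and 6.82 at 21% and 9.02, 9.19 and 8.55 at 2% oxygen. The groups were far apart, and the difference was 2.14 ± 0.29, or 4.40-fold (limma adjusted p = 0.113). F13A1, the catalytic subunit of the clot-stabilising factor XIII, had 7.91, 7.41 and 6.18 at 21% and 10.20, 9.35 and 8.28 at 2% oxygen. The donors kept their order in both groups without overlap between them, and the difference was 2.11 ± 0.39 (limma adjusted p = 0.188). When the model used only the 6 arrays without TGF-β3, with donor as a block, F13A1 was the 1 probe set called.

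F3, tissue factor, the cell-surface trigger of clotting, had 7.13, 7.21 and 7.14 at 21% and 8.64, 7.96 and 9.08 at 2% oxygen, without overlap and with a difference of 1.40 ± 0.32. F5, the cofactor of the prothrombin-cleaving complex, differed by 1.32 ± 0.23, with overlapping groups because donor 3 was at 10.02 in normoxia. The set also held membrane transport genes: SLC13A5, a citrate importer (1.30 ± 0.26), SLC5A3, a myo-inositol importer (1.06 ± 0.18), and MCOLN3, a cation channel of endosomes and lysosomes (1.33 ± 0.28). In all of these transport genes the hypoxic arrays lay above the normoxic ones.

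Secreted and matrix proteins were also in the set. C1QTNF3, a secreted C1q-domain protein first known from cartilage, had 10.91, 10.70 and 11.54 at 21% and 12.04, 11.88 and 12.29 at 2% oxygen, again without overlap (difference 1.02 ± 0.15). IGFBP5, which binds insulin-like growth factors, differed by 1.17 ± 0.28, the lipocalin gene APOD by 1.20 ± 0.37 and the small matrix protein gene DPT by 1.34 ± 0.39. The pyrimidine salvage enzyme gene CDA differed by 1.14 ± 0.16. Several members depended on 1 donor: PHEX differed by 2.30 in donor 3 and 0.05 in donor 2, LY6G6E by 2.43 and 0.17, and LOC281376 by 2.35 and 0.07.

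**Figure D2:**
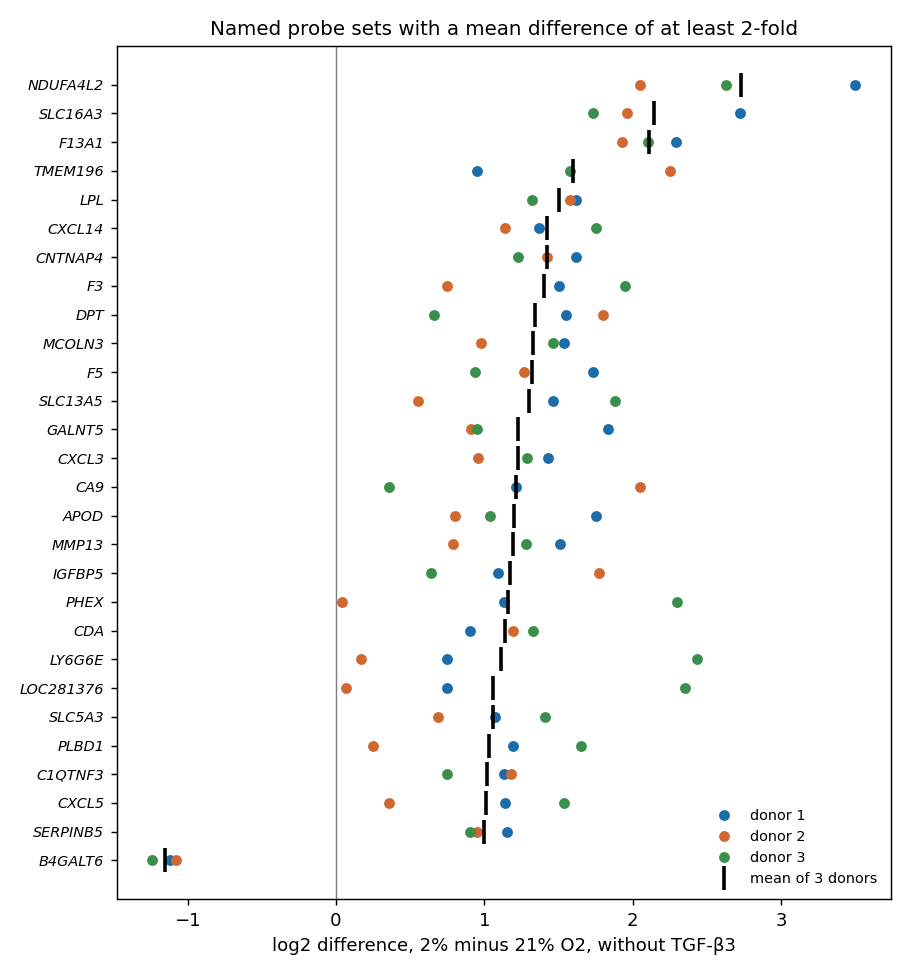
Log2 difference, 2% minus 21% oxygen without TGF-β3, of the 28 named probe sets that differed at least 2-fold in the mean and in 1 direction in 3 of 3 donors; points are donors and black bars the mean. The points of LPL, CNTNAP4 and B4GALT6 lie close together, and those of PHEX, LY6G6E and LOC281376 are spread from near 0 to above 2.

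As a list, the genes of the oxygen-sensing machinery differed in both directions. Of 10 members, 1 was higher and 2 were lower at an unadjusted p under 0.05 (4.77% and 3.65% of all probe sets), none was called, and the median difference was -0.02 against 0.00 for all probe sets. HIF1A, the α subunit that is regulated mainly at the protein level, had a log2 signal of 13.05, 13.09 and 13.04 at 21% and 12.68, 12.83 and 12.88 at 2% oxygen. All hypoxic arrays lay below all normoxic ones, a pattern shared by 5.53% of all probe sets, and the difference was -0.27 ± 0.07 (limma adjusted p = 0.356). EPAS1, the second α subunit (HIF-2α), had 10.34, 10.50 and 10.31 at 21% and 9.84, 9.81 and 9.70 at 2% oxygen, also without overlap and with a difference of -0.60 ± 0.13 (limma adjusted p = 0.256).

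EGLN3, a prolyl hydroxylase that is itself a HIF target, had 5.41, 5.31 and 5.31 at 21% and 5.55, 5.91 and 5.74 at 2% oxygen. The groups were apart by a small margin, and the difference was 0.39 ± 0.15 (limma adjusted p = 0.532). EGLN1, the main HIF prolyl hydroxylase, differed by 0.20 ± 0.11, and VHL by 0.17 ± 0.11. The partner subunit gene ARNT differed by -0.03 ± 0.09.

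Glucose uptake and lactate export were represented by 9 genes, of which 3 were higher and none lower at an unadjusted p under 0.05 (4.77% and 3.65% of all), with a median of 0.11, or 0.06 without donor 3. SLC2A1, the basal glucose transporter GLUT1, had a log2 signal of 9.22, 9.53 and 9.16 at 21% and 10.43, 10.18 and 9.92 at 2% oxygen. The hypoxic arrays were all above the normoxic ones, and the difference was 0.87 ± 0.17, or 1.83-fold (limma adjusted p = 0.216). SLC2A3, the high-affinity transporter GLUT3, had 6.50, 5.78 and 5.05 at 21% and 6.99, 6.84 and 5.72 at 2% oxygen. Its groups overlapped although each donor was higher in hypoxia, and the difference was 0.74 ± 0.24. The lactate carrier gene SLC16A1 (MCT1) differed by 0.11 ± 0.07, and the chaperone of both carriers, BSG, by 0.04 ± 0.07.

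Of 25 genes of glycolysis and glycogen metabolism, 16 were higher and none lower at an unadjusted p under 0.05, against 4.77% and 3.65% of all probe sets. In 21 of the 25 the difference was above 0 in 3 of 3 donors, as in 15.8% of all probe sets, and in 14 the hypoxic arrays were all above the normoxic ones, as in 5.50%. None was called. The median was 0.26, and within donors 1, 2 and 3 it was 0.31, 0.23 and 0.31.

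At the committed step, PFKL, the liver-type phosphofructokinase, had a log2 signal of 9.45, 9.78 and 9.28 at 21% and 10.46, 10.64 and 9.98 at 2% oxygen. Its groups did not overlap, and the difference was 0.86 ± 0.12, or 1.81-fold (limma adjusted p = 0.113), the largest of the list. PFKFB3, whose product makes the activator of phosphofructokinase, had 7.16, 7.21 and 7.02 at 21% and 7.91, 7.72 and 7.92 at 2% oxygen, a difference of 0.72 ± 0.13. Of the other phosphofructokinase genes, PFKP differed by 0.21 ± 0.08 and PFKM by 0.15 ± 0.12.

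Along the rest of the pathway the differences were 0.49 ± 0.08 for the isomerase gene GPI, 0.40 ± 0.08 for ALDOA and 0.55 ± 0.12 for ALDOC, both aldolases, and 0.37 ± 0.08 for TPI1. PGK1, which yields the first ATP of the pathway, had 12.16, 12.15 and 12.03 at 21% and 12.48, 12.51 and 12.40 at 2% oxygen (0.35 ± 0.08). ENO1 differed by 0.26 ± 0.07 and the pyruvate kinase gene PKM by 0.17 ± 0.06. LDHA, which turns pyruvate into lactate, had 7.20, 7.55 and 7.42 at 21% and 7.84, 7.72 and 7.69 at 2% oxygen. Those groups did not overlap, and the difference was 0.36 ± 0.11 (limma adjusted p = 0.416), or 0.22 without donor 1. In contrast GAPDH, often used as a reference gene, differed by 0.08 ± 0.07, with overlapping groups, and hexokinase 2 (HK2) by 0.21 ± 0.15. For glycogen, the branching enzyme gene GBE1 differed by 0.50 ± 0.12 and the synthase gene GYS1 by 0.39 ± 0.13.

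Of 12 genes that divert pyruvate from mitochondria or adapt mitochondria to low oxygen, 5 were higher and none lower at an unadjusted p under 0.05 (4.77% and 3.65% of all), and 7 had hypoxic arrays all above the normoxic ones (5.50% of all). The median was 0.24. PDK1, the kinase that shuts pyruvate dehydrogenase, had a log2 signal of 10.12, 10.45 and 10.13 at 21% and 10.90, 11.12 and 10.65 at 2% oxygen. The lowest hypoxic array was 10.65 and the highest normoxic one 10.45, and the difference was 0.65 ± 0.10, or 1.57-fold (limma adjusted p = 0.13). Its relatives PDK2, PDK3 and PDK4 differed by 0.26 ± 0.13, 0.22 ± 0.11 and 0.07 ± 0.15. BNIP3, a receptor for the removal of mitochondria by autophagy, had 11.57, 12.14 and 11.43 at 21% and 12.68, 12.85 and 12.21 at 2% oxygen. Donor 2 was highest in both groups, which came close to each other, and the difference was 0.86 ± 0.20 (limma adjusted p = 0.275). MXI1, a MYC antagonist, differed by 0.73 ± 0.20, and FAM162A, a mitochondrial protein of hypoxic cell death, by 0.60 ± 0.14.

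Genes of the respiratory chain had small differences. Of 23 oxidative phosphorylation subunits, none was higher and 2 were lower at an unadjusted p under 0.05 (4.77% and 3.65% of all). The lower ones were NDUFA4 (-0.24 ± 0.08) and SDHA (-0.16 ± 0.07), and the median of the list was -0.04. The mean difference was above 0 in 7 of the 23 (50.6% of all probe sets), and in 5 the hypoxic arrays were all below the normoxic ones (5.53% of all). Of 16 genes of the tricarboxylic acid cycle none was higher and 1 was lower at an unadjusted p under 0.05 (4.77% and 3.65% of all). Their median was -0.05. The differences of NDUFA4 and its paralogue NDUFA4L2 thus had opposite signs.

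**Figure D3:**
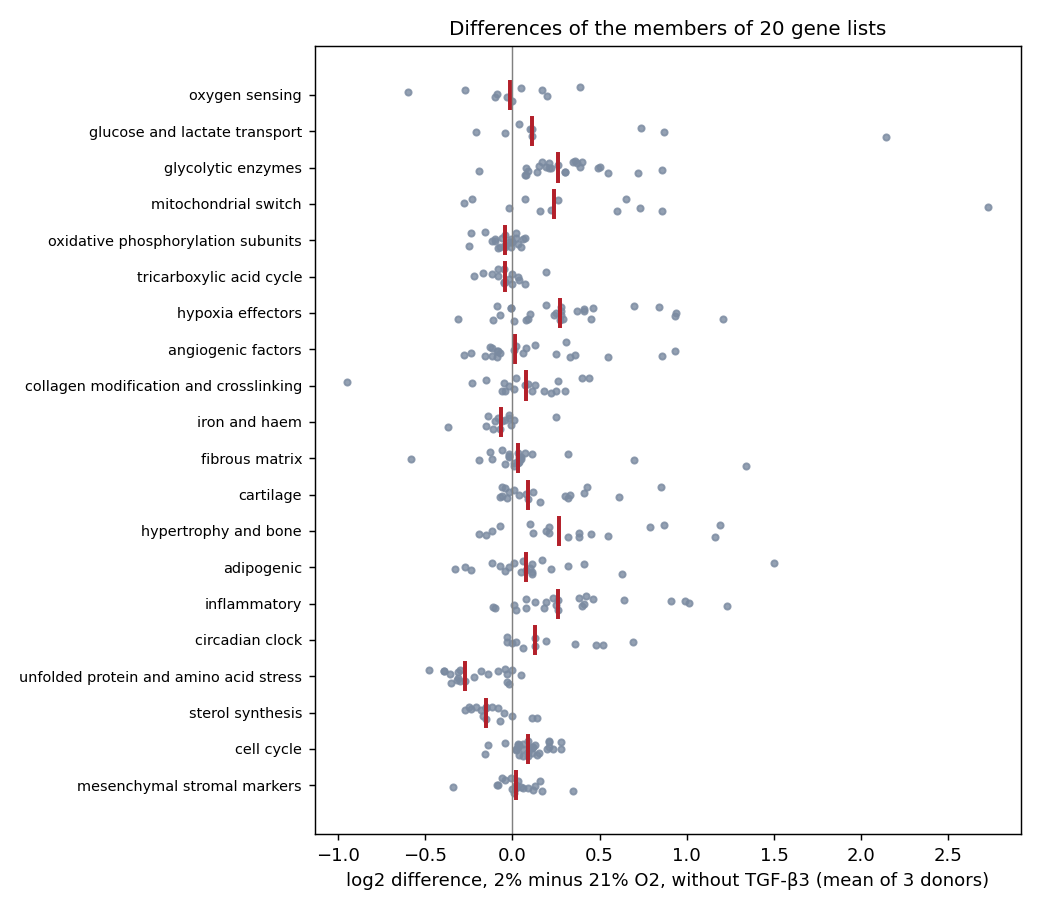
Log2 difference, 2% minus 21% oxygen without TGF-β3, of each measured member of 20 gene lists (grey points, mean of 3 donors) with the list median (red bar). The medians of the glycolytic (0.26), hypoxia effector (0.28), inflammatory (0.26) and hypertrophy and bone (0.27) lists lie to the right of 0, that of the unfolded protein and amino acid stress list (-0.27) to the left, and that of the respiratory chain is -0.04 and that of the stromal markers 0.02.

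Hypoxia effectors outside metabolism numbered 28, of which 12 were higher and none lower at an unadjusted p under 0.05 (4.77% and 3.65% of all). The median was 0.28, 18 members were above 0 in 3 of 3 donors (15.8% of all), and 6 had hypoxic arrays all above the normoxic ones (5.50% of all). CA9, the cell-surface carbonic anhydrase that controls pH and a common hypoxia marker, had a log2 signal of 5.55, 5.38 and 5.07 at 21% and 6.77, 7.43 and 5.43 at 2% oxygen. The hypoxic array of donor 3 lay within the normoxic range, so the groups overlapped. The difference was 1.21 ± 0.34, or 2.31-fold (limma adjusted p = 0.378), and 0.79 without donor 2.

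ADM, the vasodilator adrenomedullin, had 8.67, 8.66 and 8.51 at 21% and 9.68, 9.64 and 9.33 at 2% oxygen (0.94 ± 0.32). ANKRD37, an ankyrin repeat protein known as a HIF target, differed by 0.93 ± 0.24, also without overlap. NDRG1, a stress protein often used as a hypoxia marker, had 11.02, 11.07 and 10.73 at 21% and 11.46, 11.55 and 11.04 at 2% oxygen, with overlap through donor 3 and a difference of 0.41 ± 0.15 (limma adjusted p = 0.5). The growth inhibitor gene DDIT4 and the histone demethylase genes KDM3A and KDM4B differed by 0.41 ± 0.15, 0.28 ± 0.11 and 0.28 ± 0.08. Other known targets had values near 0, among them the transcriptional repressor gene BHLHE40 (0.01 ± 0.09), the lipoprotein receptor gene VLDLR (-0.01 ± 0.15) and CA12 (-0.11 ± 0.18), a second cell-surface carbonic anhydrase.

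Of 22 angiogenic genes 6 were higher and none lower at an unadjusted p under 0.05 (4.77% and 3.65% of all), but the median was 0.02, or -0.02 with equal array medians. VEGFA, the main vessel growth factor, had a log2 signal of 11.68, 11.64 and 11.71 at 21% and 12.06, 11.91 and 12.05 at 2% oxygen. The groups did not overlap, and the difference was 0.33 ± 0.09, or 1.25-fold (limma adjusted p = 0.386). ANGPTL4, an inhibitor of lipoprotein lipase as well as a vessel factor, had 6.69, 6.61 and 6.75 at 21% and 7.77, 7.35 and 7.71 at 2% oxygen (0.93 ± 0.19). The genes of LPL and its inhibitor thus both had higher signals on all hypoxic arrays. The peptide hormone gene APLN differed by 0.86 ± 0.22, and the receptor genes KDR and FLT1 by 0.13 ± 0.09 and -0.07 ± 0.18. ANG, the ribonuclease angiogenin, counted among the effectors, had 4.21, 4.80 and 4.67 at 21% and 5.30, 5.45 and 5.44 at 2% oxygen (0.84 ± 0.12, limma adjusted p = 0.113). All its normoxic values were under the first quartile of the arrays.

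Of 20 genes for collagen modification and crosslinking 5 were higher and 2 lower at an unadjusted p under 0.05 (4.77% and 3.65% of all), with a median of 0.08, which was 0.18 without the normoxic array of donor 3. The lysyl hydroxylase genes PLOD1 (0.44 ± 0.09) and PLOD2 (0.26 ± 0.08) and the prolyl hydroxylase gene P4HA1 (0.22 ± 0.09) encode enzymes that use oxygen. These genes were among 5 members with hypoxic arrays all above the normoxic ones (5.50% of all). The 2 members with all hypoxic arrays below (5.53% of all) were the procollagen protease gene ADAMTS2 (-0.23 ± 0.08) and the collagen chaperone gene SERPINH1 (-0.15 ± 0.09). LOXL4, a lysyl oxidase, had 9.63, 9.89 and 10.22 at 21% and 8.68, 8.48 and 9.73 at 2% oxygen. The hypoxic array of donor 3 stayed within the normoxic range, and the difference was -0.95 ± 0.31. Its relatives LOX and LOXL2 differed by 0.02 ± 0.07 and 0.13 ± 0.09.

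Cartilage and bone genes bear on the later use of such cells. Of 19 cartilage genes 6 were higher and none lower at an unadjusted p under 0.05 (4.77% and 3.65% of all), with a median of 0.09. It was 0.16 without the normoxic array of donor 3 and 0.32 when only probe sets above the median signal were kept. SOX9, the master regulator of cartilage, had a log2 signal of 8.37, 8.58 and 8.69 at 21% and 9.02, 8.79 and 9.14 at 2% oxygen. The groups were just apart, and the difference was 0.43 ± 0.12 (limma adjusted p = 0.354). ACAN, the main cartilage proteoglycan, had 9.31, 10.23 and 11.14 at 21% and 10.62, 10.62 and 11.98 at 2% oxygen. Donors differed more than conditions here, and the difference was 0.85 ± 0.18.

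Of 18 genes of chondrocyte hypertrophy and bone 8 were higher and none lower at an unadjusted p under 0.05 (4.77% and 3.65% of all), with a median of 0.27. Donors differed in level, and only 1 of the 18 had hypoxic arrays all above the normoxic ones (5.50% of all). The collagenase gene MMP13 had 3.74, 3.39 and 4.66 at 21% and 5.25, 4.18 and 5.94 at 2% oxygen. Its normoxic values lay below the first quartile of the arrays, and the difference was 1.19 ± 0.24 with overlapping groups. SP7, the osteoblast transcription factor osterix, differed by 0.87 ± 0.19, DLX5 by 0.79 ± 0.25 and RUNX2 by 0.21 ± 0.09.

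Inflammatory genes numbered 23, and 6 were higher and none lower at an unadjusted p under 0.05 (4.77% and 3.65% of all), with a median of 0.26, or 0.40 without the hypoxic array of donor 2. CXCL3, a neutrophil-attracting chemokine, had a log2 signal of 6.51, 6.11 and 5.90 at 21% and 7.94, 7.07 and 7.19 at 2% oxygen. The groups did not overlap, and the difference was 1.23 ± 0.15, or 2.34-fold (limma adjusted p = 0.0815). With a single probe set kept per symbol CXCL3 was called (limma adjusted p = 0.0191). CXCL5, a related chemokine, differed by 1.01 ± 0.19, the acute phase gene SAA3 by 0.99 ± 0.33, CCL2, which attracts monocytes, by 0.91 ± 0.36, and complement C3 by 0.64 ± 0.17, each without overlap. In these samples the haematopoietic marker LAPTM5 differed by 0.79 ± 0.18, while the median over the 14 haematopoietic markers was 0.08 and PTPRC differed by -0.15 ± 0.10. The part of blood cell RNA in the chemokine values was not tested.

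TNFSF13, the B cell growth factor APRIL, was among the 5 genes with the smallest p in the upward direction, with 5.61, 5.70 and 5.89 at 21% and 6.24, 6.19 and 6.45 at 2% oxygen. Its hypoxic arrays were all higher, by a mean of 0.56 ± 0.07 (limma adjusted p = 0.113). In the downward direction B4GALT6 was followed by PHLDB2, which anchors microtubules at the cell cortex, with 10.68, 10.86 and 10.44 at 21% and 10.13, 10.32 and 9.54 at 2% oxygen (-0.66 ± 0.10, limma adjusted p = 0.113). ITGB3, the β3 integrin subunit, RGS10, a regulator of G protein signalling, and LAMTOR5, a part of the lysosomal complex that recruits mTORC1, differed by -0.60 ± 0.10, -0.60 ± 0.10 and -0.48 ± 0.08. In each of these the hypoxic arrays lay below all normoxic ones.

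The unfolded protein and amino acid stress genes had the lowest median of the 27 lists, -0.27. Of 21 members 16 were below 0 in 3 of 3 donors, as were 14.9% of all probe sets, and 12 had hypoxic arrays all below the normoxic ones (5.53% of all). At an unadjusted p under 0.05 there were 4 lower and none higher (3.65% and 4.77% of all). DDIT3, the stress transcription factor CHOP, had a log2 signal of 10.09, 10.42 and 10.26 at 21% and 9.73, 9.90 and 9.68 at 2% oxygen. Its groups did not overlap, and the difference was -0.48 ± 0.17 (limma adjusted p = 0.496). The serine synthesis gene PHGDH, the amino acid carrier gene SLC7A5 and the stress transcription factor gene ATF3 differed by -0.39 ± 0.15, -0.39 ± 0.13 and -0.36 ± 0.15. The median was -0.15 and -0.16 without the hypoxic array of donor 1 or 2 and -0.06 without the normoxic array of donor 3. On leaving out 1 array or donor it ranged from -0.4 to -0.06.

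Clock genes were led by PER3, with 6.99, 7.01 and 6.96 at 21% and 7.77, 7.77 and 7.49 at 2% oxygen (0.69 ± 0.10, limma adjusted p = 0.113). ARNTL, the gene of the core activator BMAL1 and a relative of ARNT, had 7.23, 7.25 and 7.27 at 21% and 7.91, 7.69 and 7.72 at 2% oxygen (0.52 ± 0.09). Both had tight groups that did not overlap. Of the 12 clock genes 5 were higher and none lower at an unadjusted p under 0.05 (4.77% and 3.65% of all), and the median of 0.13 was 0.05 without the hypoxic array of donor 2 and 0.21 without that of donor 3.

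Other lists had few members past an unadjusted p of 0.05. Of 30 cell cycle genes 1 was higher (4.77% of all). Their mean differences were above 0 in 27 (50.6% of all probe sets) and in 3 of 3 donors in 11 (15.8% of all), with a median of 0.09, which was -0.03 without the normoxic array of donor 3. The median was 0.03 for 24 fibrous matrix genes, -0.07 for 20 contractile genes, 0.02 for 20 interferon response genes and -0.06 for 14 genes of iron and haem handling, of which 2 were above 0. Sterol synthesis genes had 2 of 16 above 0 and a median of -0.15, which ranged from -0.28 to -0.05 on leaving out 1 array or donor. None of the 16 passed an unadjusted p of 0.05 in either direction.

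The differences of the 3 donors were alike across hypoxia-related genes and less so across the whole array, as a description. Across the 126 genes of the oxygen sensing, transport, glycolytic, mitochondrial, effector, angiogenic and collagen-modifying lists, the differences of 1 donor correlated with those of another with Pearson's r of 0.82 for donors 1 and 2, 0.80 for donors 1 and 3 and 0.70 for donors 2 and 3. Across all 26773 probe sets the same correlations were 0.17, 0.15 and 0.09. Probe sets are not independent replicates, the lists were drawn up with results of these arrays known, and each donor's difference comes from 1 pair of arrays. The standard deviation of the differences over all probe sets was 0.30, 0.26 and 0.27 in donors 1, 2 and 3, and the median standard error of the mean difference was 0.11.

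In cells given TGF-β3 the same contrast was measured on the other 6 arrays, from the same donors. It called 6 probe sets, all higher in hypoxia (0.0224%), LPL among them (1.34 ± 0.13, limma adjusted p = 0.0349), and 1862 reached an unadjusted p under 0.05 (6.95%), 3.77% higher and 3.19% lower. Without the donor block it called none, and on leaving out 1 array or donor 0 to 6. Over the 126 hypoxia-related genes the mean differences without and with TGF-β3 had r = 0.89, and 95 had the same sign. Over all probe sets r was 0.28 and 57.2% had the same sign. NDUFA4L2 differed by 2.73 without and 3.09 with TGF-β3, SLC16A3 by 2.14 and 2.05, PFKL by 0.86 and 0.87, and EPAS1 by -0.60 and -0.71.

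The test of the difference between both responses called no probe set in limma (0%), and 1157 had an unadjusted p under 0.05 (4.32%), 2.04% of all with a hypoxia minus normoxia difference that was more positive with TGF-β3 and 2.28% with one that was more negative. It called 1 without donor 3 and none under the other settings. Among named genes whose difference was more negative with TGF-β3, the smallest p belonged to UNC5C, a netrin receptor, TNFSF13 and RIBC2, and among those more positive to LAMTOR5, ARHGEF5 and VAMP4. TNFSF13 differed by 0.56 without and 0.03 with TGF-β3, and LAMTOR5 by -0.48 and 0.08, each with a limma adjusted p of 0.999 for the difference.

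Several larger effects also had unequal means without passing that test. CA9 differed by 1.21 without and 2.60 with TGF-β3, so that its response was larger by 1.39 ± 0.48 with the factor (limma adjusted p = 0.999). CNTNAP4 differed by 1.42 and 0.66, CXCL3 by 1.23 and 0.47, MMP13 by 1.19 and 0.00, and SOX9 by 0.43 and -0.06. Of these, CNTNAP4, CXCL3 and MMP13 were picked by their values without TGF-β3, a choice that favours smaller values with it. TGFB2, which encodes a ligand of the same family as TGF-β3, had 9.92, 9.99 and 10.21 at 21% and 9.23, 9.39 and 9.47 at 2% oxygen without the factor (-0.67 ± 0.14), all hypoxic arrays below the normoxic ones, and differed by 0.00 with it. The medians of the hypertrophy and inflammatory lists were 0.27 and 0.26 without and -0.01 and 0.08 with TGF-β3. Those of the glycolytic and stress lists were 0.26 and -0.27 without and 0.20 and -0.25 with it. TGFB2 and these lists were also picked with their values known, a choice that likewise favours smaller differences with the factor.

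**Figure D4:**
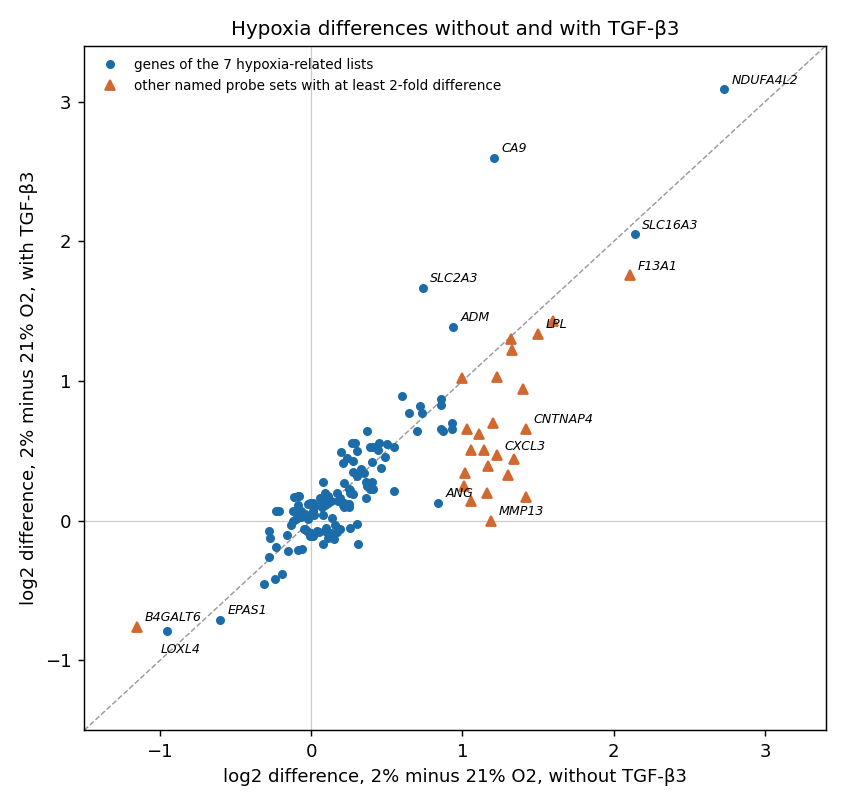
Log2 difference, 2% minus 21% oxygen, without TGF-β3 (horizontal) and with it (vertical), as means of 3 donors. Blue points are the 126 genes of the 7 hypoxia-related lists, orange triangles the other named probe sets with at least a 2-fold difference, and the dashed line marks equality; NDUFA4L2 and SLC16A3 lie near it, CA9 (1.21 and 2.60) above it, and MMP13 (1.19 and 0.00) below it.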

How the data were processed

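Total RNA from 12 cultures, 3 donors in each of 4 conditions, was measured on whole-transcript bovine arrays. The deposited values were normalised by the authors with robust multi-array averaging (RMA), per the labels' design text, and the submitters' processing notes also name Partek 6.6. From their range they were read as log2 signals and used as deposited. Which test, filters and library version the authors used is not given in the sources used here. Precision is limited by how many arrays there are. No value column was without a sample (0).

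Gene names came from the platform annotation, checked against a RefSeq gene table (assembly ARS-UCD2.0, which changed 0 symbols). There was exactly 1 symbol for 18550 of the probe sets, more than 1 for 595, and 7628 were left unnamed. Among 18087 symbols, 416 had several probe sets and were represented in the lists by the one with the highest mean. The 27 lists held 488 measured genes of 534 written, and BMAL1 was matched as ARNTL.

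A linear model with group and donor as fixed terms was fitted to all 12 arrays in R 4.3.3 with limma 3.58.1 (lmFit, contrasts.fit and eBayes), which left 6 residual and added 3.34 prior degrees of freedom. The Benjamini-Hochberg method was applied across all 26773 probe sets at a threshold of 0.05. The procedure was tested on simulated data. The pairing comes from the donor number in each title. The comparison was paired because the cells of each animal were split over the conditions. Deviations from group means correlated with r of 0.18 to 0.60 in the 18 same-donor pairs of arrays. In the 36 pairs of different donors and conditions r was -0.44 to 0.10. Subtracting the group means lowers the second range wherever the first is positive, so their contrast is partly fixed in advance. With donor as a random block the consensus correlation was 0.17. A scan or hybridisation batch is not named in the sources used here.

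The comparison, the lists and the tests were chosen with earlier results of these data known. Genes were named by a rule: called genes with 1 symbol and 1 direction in 3 of 3 donors, up to 4 called members of a list, the 5 smallest p in each direction, and the check genes CA9, VEGFA, PDK1, NDRG1, SLC2A1, LDHA, BNIP3, EGLN3, HIF1A, EPAS1 and SOX9. For the interaction it took the 3 smallest p each way. The 2-fold set and the other examples were chosen after their values were seen. Lists are described by counts and medians, with no test of their own. Alternatives were a random donor block or none, only the 6 arrays compared, equal medians, quantile normalisation, a signal filter, an intensity trend, robust eBayes, 1 probe set per symbol, a threshold of 2-fold, and the omission of each array or donor in turn.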

Additional observations from a re-analysis of the deposited data

How the results depend on the processing

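The count of probe sets called for hypoxia without TGF-β3 (3) was the same with equal array medians, quantile normalisation, an intensity trend, robust eBayes and a 2-fold threshold. It was 1 with no replicate block, 1 with a random block, 1 with only the 6 arrays and a block, with 0 of the 3 shared (adjusted p = 0.102 for LPL and 0.11 for CNTNAP4 and B4GALT6), and 0 with these and no block, a setting chosen after seeing the data. It was 18 among probe sets above the median signal, with 2 of the 3 shared. CNTNAP4 was removed by this signal filter and so was not tested there. The count was 20 with 1 probe set per symbol, with 3 shared. Fewer tests are adjusted over in both settings. Leaving out 1 array or donor gave 0 to 8. LPL and B4GALT6 lost the call without 5 of the 6 arrays compared, hypoxic donor 2 excepted, and CNTNAP4 without each normoxic array, and all 3 did so without each donor. SLC16A3, PDK1, PHLDB2, PFKL, PER3, C1QTNF3 and CDA were among the genes called both with the signal filter and with 1 probe set per symbol. ITGB3 was also called with the filter, and ANG, CXCL3 and TNFSF13 with 1 probe set per symbol. For hypoxia with TGF-β3 (6 called) the count was 0 with no replicate block or a random one, 2 at 2-fold, 16 above the median signal, 14 with an intensity trend, 14 with 1 probe set per symbol and 0 to 6 on leaving out an array or donor. The interaction count (0) was 0 to 1 on leaving out an array or donor and 0 otherwise; the fit to only 6 arrays does not apply to these. For 21 named genes, 520 values under 26 settings kept their direction, with 32 calls lost and 11 gained. Of 674 list medians 48 moved by more than 1 SD between donors. Among lists with a median beyond 0.2, the hypertrophy, inflammatory and mitochondrial medians were 0.45, 0.40 and 0.43 above the median signal. These medians cover only the members that pass the filter, which leaves the difference of each gene unchanged. The causes of the other changes were not tested.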

Other observations

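None of the 24 TGF-β response genes was called between 2% and 21% oxygen in cells that had received none of the factor, and those named here were chosen after their values were seen. ID1, a BMP-responsive inhibitor of differentiation, had a log2 signal of 8.70, 7.76 and 8.31 at 21% and 9.67, 8.23 and 9.75 at 2% oxygen in donors 1, 2 and 3, a difference of 0.96 ± 0.24 (limma adjusted p = 0.332). Donor 2 was the lowest in both groups, which overlapped. The feedback inhibitor gene SMAD7 differed by 0.41 ± 0.10, ID3 by 0.37 ± 0.15 and TGFB1 by 0.31 ± 0.11, while the latency protein gene LTBP1 differed by -0.30 ± 0.13. The lowest difference of the list was -0.67, the value given above for TGFB2. At an unadjusted p under 0.05, 4 were higher and 2 lower (4.77% and 3.65% of all probe sets), and the median was 0.15. The hypoxic arrays lay all above the normoxic ones in 1 (5.50% of all) and all below in 2 (5.53%).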
